A study of Mus musculus with 13 samples.

Results

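The microRNA miR-210-3p, listed on the array as mmu-miR-210-3p, was followed across 13 mouse arrays. It is 1 of the 1122 mouse miRNAs on the array and was chosen by its signal on these same arrays, primary cells against a cultured line. Its levels are therefore given as a description, with no test. The arrays were 1-colour Agilent miRNA arrays, hybridised with RNA from C57BL/6 cells that had been sorted by flow cytometry. DN cells were CD4- CD8- thymocytes and DP cells were CD4+ CD8+ thymocytes, both from the thymus. ES and LS cells were T-cell acute lymphoblastic leukaemia (T-ALL) at an early and a late stage, sorted by both CD4 and CD8 from spleens of chimeras whose bone marrow had been transformed with N1ICD, the intracellular part of Notch1. Each of these 4 groups had 3 biological replicates by the study's design, 12 primary arrays in all. The remaining array held M295, a mouse T-ALL cell line taken from a culture dish, which is 1 line on 1 array. The age and sex of the mice, the vector that carried N1ICD and the oxygen level of the culture are not given in the sources used here. Leukaemic cells came from spleen and thymocytes from thymus, so that organ of origin and leukaemia cannot be told apart between these groups, and culture, line and leukaemia cannot be told apart in M295.

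miR-210 is the microRNA most widely used as a marker of low oxygen. Its gene is switched on directly by hypoxia-inducible factor 1 (HIF-1), a transcription factor that is stabilised when oxygen falls. The mature 3p strand represses Iscu, a scaffold protein for iron-sulphur clusters, which lowers mitochondrial respiration, and it also represses Efna3, Gpd1l and, in T cells, Hif1a itself. In T lymphocytes miR-210 is known to rise on activation through the T-cell receptor and in low oxygen.

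The sequences are shown because the array measured both strands of this hairpin separately, and because the seed, the stretch that pairs with target RNAs, sets which messages a miRNA can repress. They come from RefSeq on build GRCm38.p6. The gene Mir210 lies on the minus strand at chr7:141221384-141221493, with Rassf7 as its nearest annotated neighbour on one side and Gm51460, then Phrf1, on the other. In the mature strands the seed, bases 2 to 8, is in capitals, and in the hairpin the capitals mark the whole 3p strand.
miR-210-3p: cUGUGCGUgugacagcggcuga
miR-210-5p: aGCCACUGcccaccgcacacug
Mir210 hairpin: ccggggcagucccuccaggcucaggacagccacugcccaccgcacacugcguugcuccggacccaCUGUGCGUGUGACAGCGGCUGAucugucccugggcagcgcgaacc
The 3p strand is 22 bases long, spans chr7:141221407-141221428 and occupies bases 66 to 87 of the 110-base hairpin. The 5p strand spans chr7:141221445-141221466. Among 1679 mature mouse miRNAs in the table, miR-210-3p was the 1 with the seed UGUGCGU, and no other shared bases 2 to 7, so it has no seed family there. Its GC content was 63.6%, against a median of 52.2% over the mature miRNAs, of which 17.6% had a GC content at least as high.

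Signals are given as log2 of the miRNA's intensity over the array's reference level. That reference is the 75th percentile of the 108 mouse miRNAs above background on all 12 primary arrays, so 0 means a signal equal to that percentile, and the lowest value was set at a floor of -7.59. A miRNA counted as above background on an array where at least 50% of the kept spots of 1 of its probes were well above background by the scanner software. Between 115 (ES 1) and 244 (ES 3) mouse miRNAs passed on a primary array and 257 on M295. The reference intensity lay between 1354 and 2260 on the primary arrays and was 2186 on M295, and no spot was saturated. ES 1 stood apart as an array, with a standard deviation of the negative control spots of 19.0 against 5.21 to 7.11 on the other primary arrays and 5.44 on M295. ES 3 stood apart by its miRNAs. The summed signal of the myeloid markers miR-223-3p and miR-223-5p was 723% of the reference there, against at most 3.37% on the other primary arrays and 0.430% on M295. The blood-cell miRNA pair miR-142-3p and miR-142-5p was above background on every array and summed to 492% to 1056% in primary cells and 659% in M295. All 3 T-lymphoid markers (miR-181a-5p, miR-150-5p, miR-342-3p) were above background on ES 3 and M295, as on most arrays (13, 11 and 13 of 13). In M295 they went different ways. miR-181a-5p, at -2.57, lay below every primary array, miR-342-3p, at -1.50, above every one, and miR-150-5p, at -3.30, within their range.

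In M295 the miR-210-3p signal was -0.53 on the log2 scale, or 69.4% of the reference level. In DP thymocytes it was -5.78, -5.78 and -6.02, and in DN thymocytes -6.46, -6.25 and -6.40. The ES arrays gave the floor of -7.59, -6.84 and -4.54, and the LS arrays -6.60, -6.49 and -7.16. M295 therefore lay above every primary array, the DP arrays lay together above all DN and LS arrays, and the 3 ES arrays held both the lowest and the highest primary value. As percentages of the reference, the DP arrays reached 1.54% to 1.82%, the DN arrays 1.13% to 1.31%, the LS arrays 0.699% to 1.11% and the ES arrays 0.0538% to 4.31%.

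**Figure D1:**
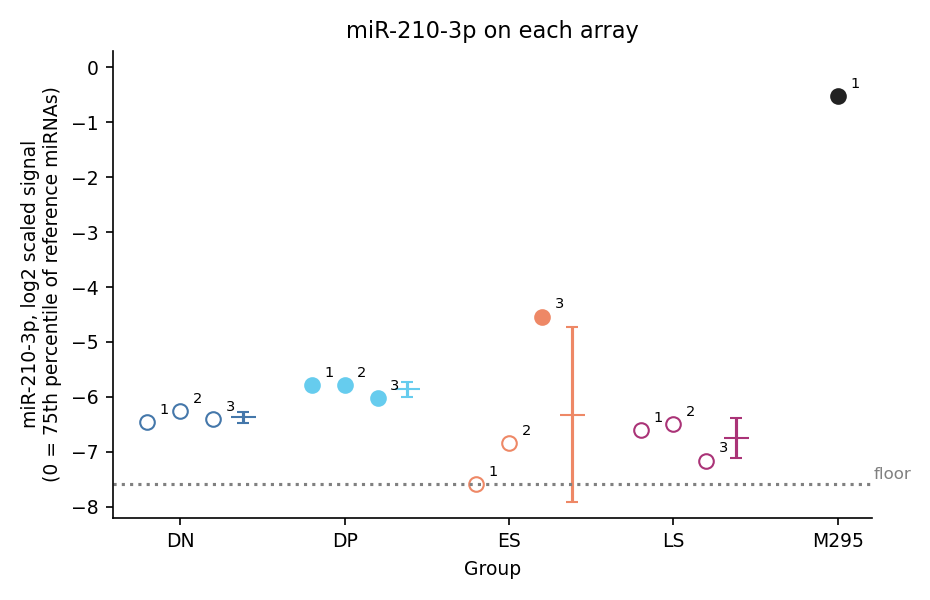
Log2 signal of miR-210-3p relative to the array's reference level (vertical axis) for each of the 13 arrays by group (horizontal axis), with filled points where the miRNA was above background and open points where it was not. The digits are replicate numbers, and the crossbars beside each group give its mean ± SD. M295 sits at -0.53, the highest primary array, ES 3, at -4.54, and ES 1 at the floor of -7.59.

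miR-210-3p was above background on 5 of the 13 arrays: DP 1, DP 2, DP 3, ES 3 and M295. On the other 8 arrays the values describe a signal not well above background and hold only as a bound. In units of the spread of each array's negative control spots, the mean signal stood 278 standard deviations above them in M295 and 14.4 in ES 3. The DP arrays stood 4.14 to 6.66 above, and ES 1 stood at -0.0329.

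The array carried a pair of probes for miR-210-3p, with 20 spots kept of each on M295, and both gave the same picture. The first probe read 1834 ± 126 on M295 (SD of 20 spots) and 5.34 to 113 on the primary arrays. The second read 1201 ± 65.0 on M295 (SD of 20 spots) and -3.76 to 73.5 on the primary arrays, where a negative value is a signal under the local background. These SDs cover the spots of 1 array and say nothing of the spread between cultures. All 40 spots of 40 were well above background on M295 and on ES 3, against 19 of 37, 23 of 40 and 11 of 39 on the DP arrays and at most 7 of 39 on any other array. The first probe was above background on 5 arrays and the second on 2, which were ES 3 and M295, so the DP level rests on the first probe.

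**Figure D2:**
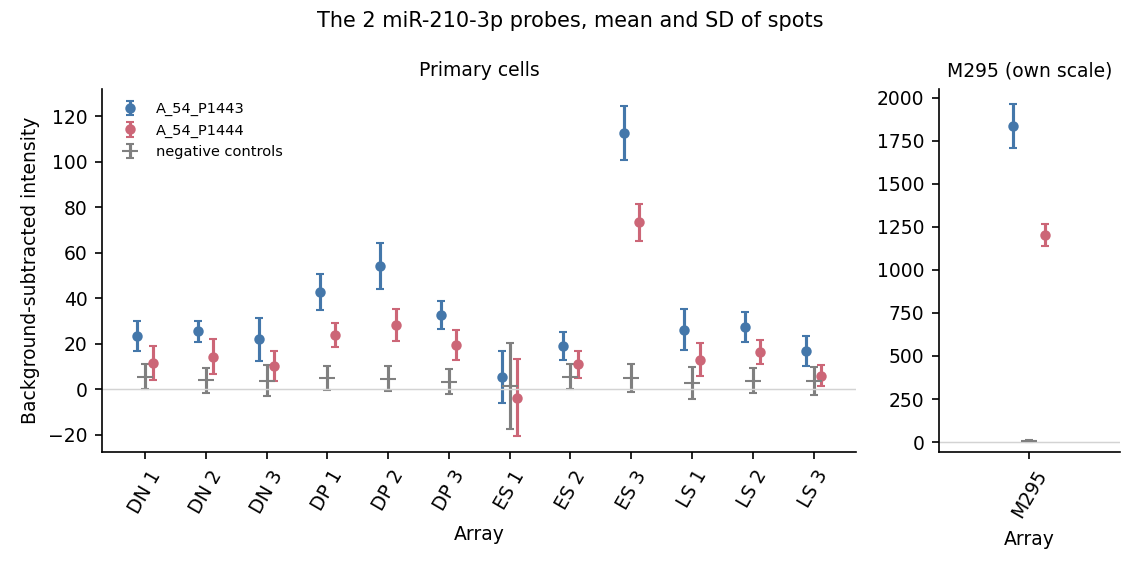
Background-subtracted intensity of the 2 miR-210-3p probes (vertical axis) on each of the 12 primary arrays and, on a scale of its own at the right, M295 (horizontal axis), with points for the mean over spots, bars for the SD over spots and grey crosses for the negative controls. Both probes are highest on M295, at 1834 and 1201, and next highest on ES 3.

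M295 was 5.80 log2 units above the mean signal of the 12 primary arrays. Since 8 of the 12 were not above background, the fold over primary cells depends on how dim signals are handled. With each of these signals raised, where lower, to its array's lowest signal above background, the fold was 51.4. Without that step it was 34.5 with scaling over all mouse miRNAs, 24.0 in the authors' deposited table and 12.1 with the background modelled by the normexp method. Over DP, where every array was above background, the difference was 5.34, or 40.4-fold. M295 was 57.6-fold over DN and 74.8-fold over LS, where the miRNA was not above background on any array. Each of these folds is set against the group's own mean signal and holds for this processing only. Over ES, with 1 of 3 arrays above background, the fold was 40.1 with dim signals raised in the same way as for all primary arrays. Over ES 3, the highest primary array, M295 was 4.01 higher, or 16.1-fold. The M295 side has no replicate, so none of these differences carries an error for the line, while the 12 primary arrays spread with an SD of 0.77 around their mean of -6.33.

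Many miRNAs differed between M295 and the primary cells. The comparison used the 286 other miRNAs above background on M295 or on every array of some primary group. Of these, 57 (19.9%) were at least 4-fold above the primary mean in M295 and 14 (4.9%) at least 4-fold below. M295 was above every primary array for 95 of them (33.2%). The same 4-fold count against the 6 T-ALL arrays alone was 57 (19.9%). A miRNA could enter through the 1 M295 array alone, so the counts above and below do not compare like with like. Ranked by the M295 difference, miR-210-3p was first of all 287, and first also by the difference from the highest primary array. Next in that ranking came miR-9-3p at 4.99, miR-9-5p at 4.97 and miR-31-5p at 4.63, the first pair at the floor on 9 of the 12 primary arrays (miR-9 was named after its values were seen). Among miRNAs above background on at least 10 of the 13 arrays, a condition that miR-210-3p itself does not meet, the highest were miR-2137 at 4.51 and miR-449a-5p, a member of the miR-34 seed family, at 4.13. The difference for miR-210-3p was 3.59 (rank 2) when the background was modelled by the normexp method and 4.58 (rank 1) in the authors' deposited value table. In that table miR-210-3p read 9.15 in M295 and 3.71 to 5.32 on the primary arrays, with ES 3 again the highest of them.

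Among the primary groups the order of mean log2 signal was DP at -5.86 ± 0.14, ES at -6.32 ± 1.59, DN at -6.37 ± 0.11 and LS at -6.75 ± 0.36 (SD, n = 3 each). With ES 1 entered at the floor, the ES arrays spanned all other primary arrays, so ES did not differ from DP or DN beyond its spread. The lowest DN array, at -6.46, lay above the highest LS array, at -6.49, but neither group was above background and their order is not resolved. DP averaged 1.43-fold above DN and 1.85-fold above LS under this processing, with no overlap of arrays in either case. Such separation was common: DN lay below DP without overlap for 35.1% of the 228 other tested miRNAs, and LS below DP for 36.4%. In sorted bulk cells, fewer cells with the miRNA and less of it per cell cannot be told apart.

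T-ALL arrays averaged -6.54 ± 1.06 and thymocyte arrays -6.12 ± 0.30 (SD, n = 6 each), a difference of -0.42 with a standard error of 0.43. LS minus ES was -0.43 and DN minus DP was -0.51, each with a standard error of 0.61. Against the DP arrays, which both share, ES was -0.46 and LS -0.89, with the same standard error. With normexp the DN minus DP value became 0.16, ES minus DP 0.23 and LS minus DP -0.12.

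ES 3 and ES 1 set the values that involve ES. ES 3 was 1.95 log2 units (3.87-fold) above the next T-ALL array. Without ES 3, T-ALL minus thymocytes was -0.87, ES minus DP -1.36 and LS minus ES 0.47. Without ES 1 the same values were -0.10, 0.17 and -1.06, and without both arrays -0.68, -0.98 and 0.09. The arrays lay on 2 slides, with ES 3 on the second and the other ES arrays and M295 on the first. Within the first slide T-ALL minus thymocytes was -0.76, ES minus DP -1.43 and LS minus ES 0.67. Within the second slide, where ES and LS each had 1 array, they were 0.27, 1.36 and -2.62. M295 minus the primary arrays of its own slide was 6.10.

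Of the marker lists of other cells, the myeloid one was highest on ES 3, as miR-210-3p was. Of that list, miR-223-3p was at 2.85 on ES 3 and between -7.31 and -4.89 on the other primary arrays, while miR-223-5p was not above background on any array. The summed myeloid signal was 2.51% to 3.37% in DN, 0.630% to 0.901% in DP, 0.737% to 723% in ES and 0.968% to 1.07% in LS. The erythroid list, with 2 of 3 members above background anywhere and miR-144-5p on none, summed to 75.4% to 102% in DN, 1.15% to 2.24% in DP, 1.58% to 38.9% in ES and 8.96% to 161% in LS. ES 3 was the highest ES array there but lay below all DN arrays. Of the endothelial and stromal list, 1 of 8 members (miR-126-3p) was above background on any array, and none on ES 3 or M295. The epithelial list had 3 of 6 members above background somewhere and summed to 3.20% on ES 3, at most 4.60% on the other T-ALL arrays and 4.22% on M295. In M295 no myeloid or erythroid marker was above background. The part of these other cell types in the miR-210-3p level of ES 3 was not tested.

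The 5p strand of the same hairpin, miR-210-5p, is the strand usually degraded when the mature miRNA is loaded, and it was not used to choose miR-210-3p. It was not above background on any of the 13 arrays, and 0 of its spots were well above background. One of its probes read 18.1 ± 8.14 on M295 (SD of 20 spots) against -12.3 to -1.12 on the primary arrays. The other read 0.175 on M295 against -12.5 to -2.08. Both probes thus read higher on M295 than on any primary array, at an intensity that did not pass the scanner's background test.

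Other miRNAs with a reported link to low oxygen were taken as lists. The first holds 13 miRNAs reported as raised by hypoxia in cultured cells, from the miR-23, miR-24, miR-26, miR-27, miR-103 and miR-181 families. In M295 none of the 13 lay above every primary array, against 33.2% of all other measured miRNAs, and 9 of 13 lay below every primary array, against 16.1%. Each of the 13 was above background on 12 or 13 arrays. The other measured miRNAs include any that passed on M295 alone, so these shares do not compare like with like. The median difference of the 13 from the primary mean was -1.25, with a range of -2.35 to -0.44. The median over all other measured miRNAs was 0.27. At least 4-fold below the primary mean were miR-181a-5p at -2.35, miR-181a-1-3p at -2.32 and miR-26a-5p at -2.10. miR-181a-5p, which tunes the sensitivity of the T-cell receptor in developing thymocytes, is also in the T-lymphoid marker list. The count below every primary array was 5 when arrays were scaled by the median and 11 when scaled over all mouse miRNAs, and the count above was 0 under each scaling.

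The second list holds 9 miRNAs reported to act on HIF-1 or its regulators, of which 7 were measured. miR-199a-5p and miR-429-3p were not above background on any array. miR-31-5p, which represses the HIF-1 inhibitor FIH (Hif1an), was the 1 member of 7 above every primary array in M295, at -1.18 against -7.59 to -2.91. It stood 22.4-fold above the primary mean under this processing, with dim signals raised as for miR-210-3p. On the primary arrays it was above background on 6 of 12 and at the floor on 5. miR-18a-5p, which shares a primary transcript with miR-17 and miR-20a and is reported to repress Hif1a, was the 1 member below every primary array, 1.55 lower than their mean. Its cluster mates, miR-17-5p and miR-20a-5p, and the related miR-20b-5p lay within the primary range, at differences of -0.85, -1.03 and -0.56. miR-155-5p was at -7.45 in M295 and miR-322-5p at the floor. The median of the 7 differences was -1.03. With median scaling 0 of the 7 lay below every primary array, and with scaling over all mouse miRNAs 2 did, while 1 lay above under each.

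**Figure D3:**
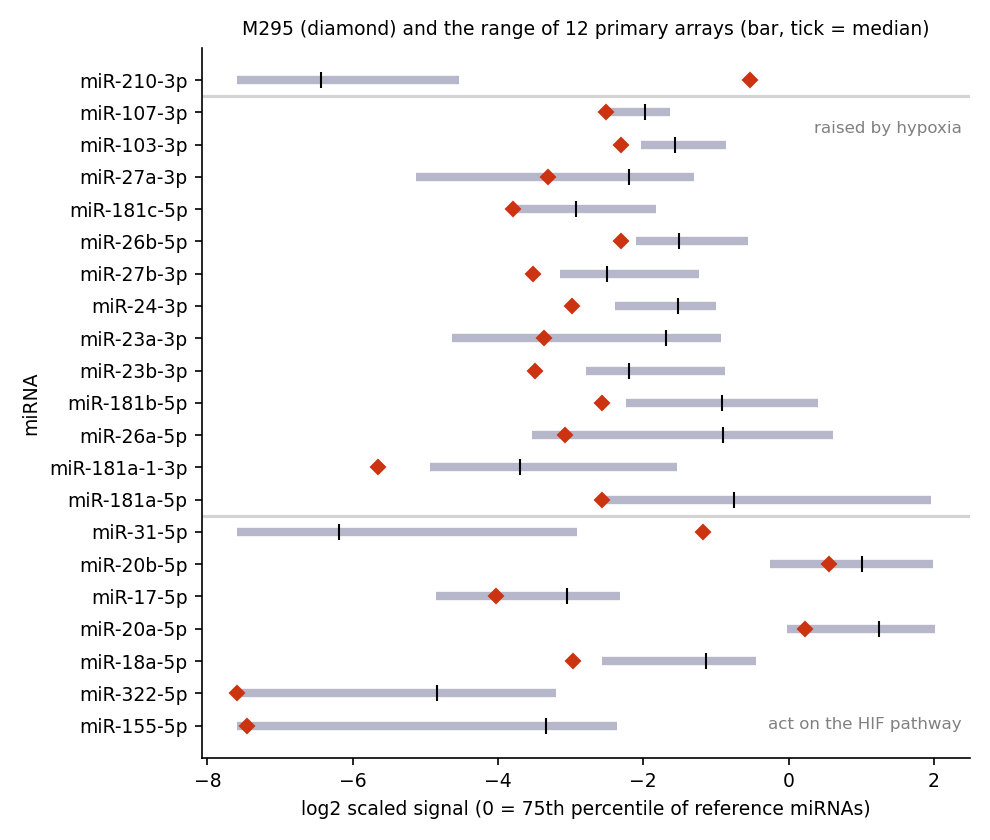
Log2 signal relative to the array's reference level (horizontal axis) for miR-210-3p and the measured members of both lists (vertical axis), with the M295 value as a diamond and the range and median of the 12 primary arrays as a bar and a tick. Of the listed miRNAs, miR-210-3p and miR-31-5p lie above their primary range in M295.

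The same lists were tested between primary groups with limma over all 229 tested miRNAs, with Benjamini-Hochberg adjustment and a threshold of 0.05. In T-ALL against thymocytes, 6 of the 13 hypoxia-raised miRNAs were lower and 0 higher, where 25.9% of the 228 other tested miRNAs were lower and 31.6% higher (57.5% called in all). The 6 that fell were miR-26a-5p by 1.65, miR-181a-5p by 1.50, miR-181a-1-3p by 1.32, miR-181c-5p by 1.17, miR-181b-5p by 0.82 and miR-26b-5p by 0.52. Their adjusted p from limma ranged from 0.0002 for miR-181c-5p to 0.0378 for miR-26b-5p. The thymocyte mean pools DN and DP. Means in T-ALL, DN and DP were -0.98, -0.83 and 1.88 for miR-181a-5p and -1.13, -0.97 and 0.36 for miR-181b-5p. They were -3.99, -3.80 and -1.55 for miR-181a-1-3p and -1.67, -1.57 and -0.72 for miR-26b-5p. For these T-ALL was near DN and below DP. T-ALL means were below both for miR-26a-5p (-1.81, -0.84 and 0.54) and miR-181c-5p (-3.52, -2.82 and -1.88). The call on miR-26b-5p was lost under 14 of 26 alternatives, among them slide as a block (-0.41, limma adjusted p = 0.0863). Of those not called, miR-23a-3p differed by -1.02 (limma adjusted p = 0.0510), miR-27a-3p by -0.97 (0.0544), miR-27b-3p by 0.58 and miR-23b-3p by 0.31. The list's median difference was -0.82, against -0.12 over the other tested miRNAs. Within the first slide, with 1 DN and 1 DP array, 0 of the 13 were called, although the differences were of like size (-2.01 for miR-26a-5p, -1.66 for miR-181a-5p and -1.17 for miR-181c-5p). Without ES 3 the count was 9 of 13, while calls over all other tested miRNAs rose from 131 to 153.

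**Figure D4:**
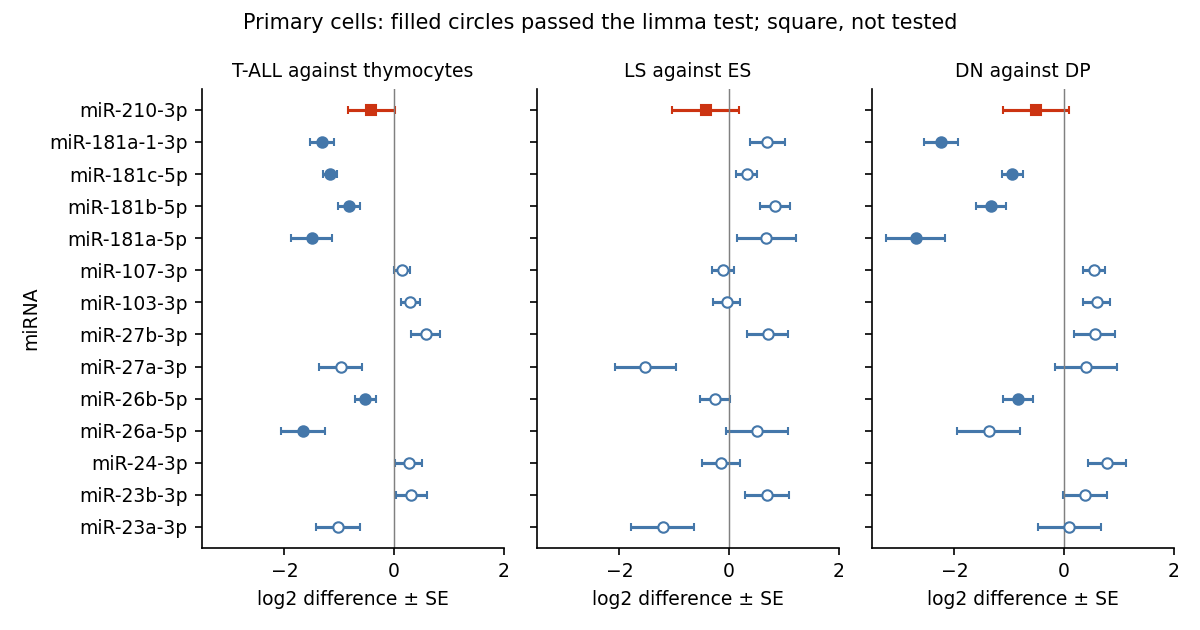
Log2 difference (horizontal axis) with its standard error from the limma fit for miR-210-3p (square, not tested) and the 13 hypoxia-raised miRNAs (circles, vertical axis) in the 3 comparisons of primary groups. Filled circles passed an adjusted p of 0.05: 6 in T-ALL against thymocytes, 0 in LS against ES and 5 in DN against DP, all of them lower.

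Of the 7 measured miRNAs that act on the HIF pathway, 2 were lower in T-ALL and 0 higher. Both passed the filter through the thymocytes, where they were above background on all 6 arrays, so their calls are no support for the list. Expression of miR-155-5p rises in lymphocytes on activation, and it is reported to repress Hif1a. It lay at -3.34 to -2.77 in thymocytes and at -5.29, -7.59, -2.35, -4.77, -7.59 and -6.80 on the ES and LS arrays, of which ES 3 and LS 1 were above background. Thymocytes averaged 6.13-fold above T-ALL under this processing (limma adjusted p = 0.0146). miR-322-5p, the rodent form of miR-424, which stabilises HIF-1 by repressing Cul2, lay at -4.98 to -4.38 in thymocytes, at -3.21 on ES 3, the 1 T-ALL array above background, and at the floor on 4 of the 6. Thymocytes averaged 3.91-fold above T-ALL with dim signals raised as for miR-210-3p in M295 (limma adjusted p = 0.0130 for the fitted difference). On ES 3 both miRNAs were above all thymocyte arrays. The next by size were miR-31-5p at 0.88, miR-20b-5p at -0.28, miR-20a-5p at -0.26 and miR-17-5p at -0.22, none of them called. Neither call passed when all 1122 mouse miRNAs were tested. With normexp the fitted difference moved from -2.62 to -1.003 for miR-155-5p and from -2.10 to -0.42 for miR-322-5p (limma adjusted p = 0.0190 and 0.113). Without ES 3 the differences were -3.30 and -2.76. In that fit 3 of the 7 were called, while calls over all other tested miRNAs rose from 131 to 153.

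In LS against ES, 0 members of either list were called by limma, where 2.63% of the other tested miRNAs were (2.19% higher and 0.439% lower). At an unadjusted p under 0.05 there were 2 of 13 and 0 of 7. Those 2 were miR-181b-5p at 0.84 and miR-27a-3p at -1.53. The medians were 0.32 for the hypoxia-raised list and 0.29 over the other tested miRNAs. Without ES 3 limma called 4 of 13 and 1 of 7, while calls over all other tested miRNAs rose from 6 to 55.

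In DN against DP, 5 of the 13 hypoxia-raised miRNAs were lower in DN and 0 higher, against 18.9% lower and 10.5% higher among the other tested miRNAs (29.4% in all). The 4 miR-181 miRNAs fell by 2.71 (miR-181a-5p), 2.25 (miR-181a-1-3p), 1.33 (miR-181b-5p) and 0.94 (miR-181c-5p), and miR-26b-5p fell by 0.85. From the second list, miR-18a-5p rose by 1.69 with a standard error of 0.44 (limma adjusted p = 0.0146), and the other 6 were not called. Within the first slide, 1 DN array against 1 DP array, 0 members of either list were called, although miR-181a-5p stood at -2.78 and miR-181a-1-3p at -2.47. Within the second slide, with 2 arrays each, 9 of 13 and 6 of 7 were called. Without ES 3, which enters through the shared estimate of spread, the counts were 7 of 13 and 5 of 7. Without ES 1 and ES 3 together they were 8 and 4. Calls over all other tested miRNAs also rose in each of these fits and within the second slide, from 67 to 101 without ES 3. Without DP 3 the call on miR-18a-5p was lost (limma adjusted p = 0.0601). The DP arrays, where miR-210-3p was above background, thus also carried the higher miR-181 signals, and their T-lymphoid marker sum was 370% to 412% against 60.5% to 76.1% in DN. Of that sum, miR-181a-5p made up 94.4% to 94.5% in DP and 82.2% to 85.4% in DN. Of the other members, miR-150-5p was higher in DP (-2.58 to -2.37 against -4.94 to -4.11) and miR-342-3p lower (-4.87 to -4.76 against -4.12 to -3.69). The relation of these markers to miR-210-3p was not tested.

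The miRNAs most like miR-210-3p in their pattern were found by Pearson correlation of log2 signals among 156 others above background on at least 10 of the 13 arrays. Over the 12 primary arrays the highest r was 0.91 for miR-140-5p (Spearman 0.92), followed by miR-22-3p at 0.85 (0.67), miR-140-3p at 0.82 (0.91), miR-142-5p at 0.78 (0.60) and miR-192-5p at 0.77 (0.80). Leaving out ES 1 and ES 3, the arrays farthest from the median, r over the other 10 was 0.83, 0.81, 0.92, 0.73 and 0.62 in the same order. Both strands of miR-140, which come from 1 hairpin, were thus among the 5. These values are descriptions over arrays that share groups, slides and scaling. miR-210-3p itself was above background on 4 of the 12 primary arrays, so much of its pattern there lies among dim signals. With scaling over all mouse miRNAs, 2 of the 5 (miR-140-3p and miR-22-3p) were again among the 5 highest.

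On ES 3, miR-22-3p was at -1.07 against -6.13 to -2.87 on the other primary arrays, and miR-140-5p at -2.75 against -4.01 to -3.06. Both also had their next highest values on the DP arrays. In M295 the likeness ended, since miR-140-5p was 0.63 and miR-140-3p 0.67 below the primary mean and miR-22-3p 1.25 above it. The lowest r over the primary arrays was -0.84 for miR-18b-5p, which was -0.22 without ES 1 and ES 3. Next were miR-677-3p at -0.84 and miR-378b at -0.80, which were -0.77 and -0.62 without those arrays.

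With M295 included, the highest r over 13 arrays was 0.86 for miR-466i-5p, then 0.81 for miR-574-5p, 0.77 for miR-1187, 0.76 for miR-2137 and 0.74 for miR-1196-5p. All 5 were above their highest primary array in M295, by 1.10 to 2.98, and over the 12 primary arrays their r fell to between 0.02 and 0.61. Without ES 1 and ES 3 it was -0.73 for miR-2137, -0.36 for miR-1196-5p and between 0.42 and 0.56 for the other 3. These correlations rest on the M295 array.

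**Figure D5:**
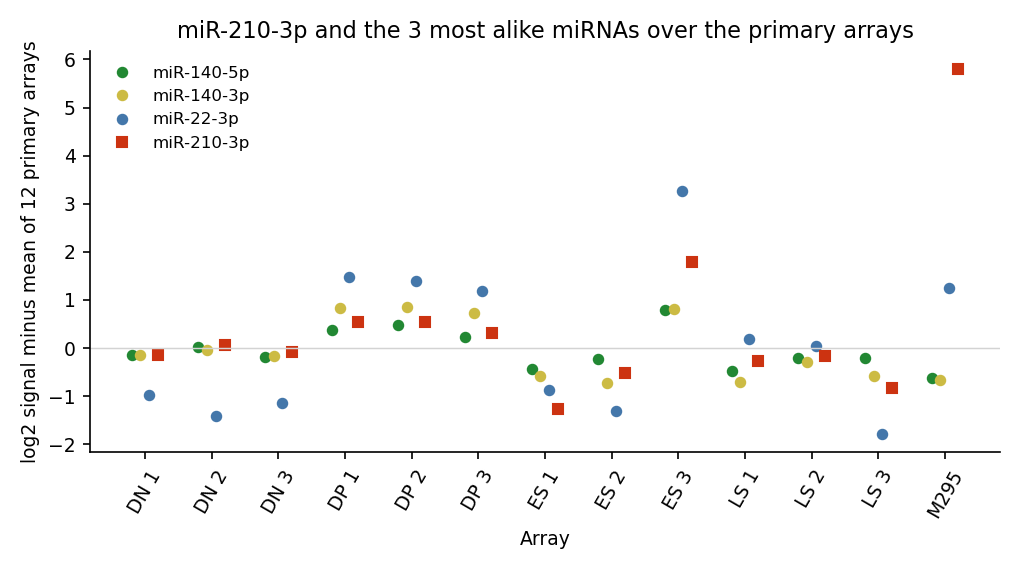
Log2 signal minus the mean of the 12 primary arrays (vertical axis) on each of the 13 arrays (horizontal axis) for miR-210-3p and the 3 miRNAs most like it over the primary arrays. All 4 are raised on the DP arrays and on ES 3, and on M295 miR-210-3p stands at 5.80 while both miR-140 strands lie below 0.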

How the data were processed

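The data were 13 arrays of 1-colour Agilent miRNA intensity, deposited as scanner output (Feature Extraction 10.7.3.1, per the file headers), with 47160 non-control spots each. RNA came from sorted cells by the miRNeasy kit, per the labels' protocols. The authors also deposited a table of log2 values per miRNA, whose normalization is not given in the sources used here; its columns share a median of 3.29 and follow the order of the scanner's total gene signal. Of tools, the submitters' processing notes list GCOS, MAS5, RMA and affy. The background-subtracted processed signal was averaged over spots without outlier flags, then over probes, divided by the array's reference percentile, floored and taken to log2. limma 3.58.1 (R 4.3.3; lmFit and eBayes, tested on simulated data) fitted the 4 primary groups over the 229 miRNAs that passed the background rule on every array of some group, with Benjamini-Hochberg adjustment. All were analysed on 1 scale with no batch term. Alternatives changed the scaling, background correction, outlier spots, summary, filter, slide, replicate block and arrays left out.

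The miRNA, the lists and the tests were chosen with earlier results of these data known, so they are no independent evidence. Named miRNAs were miR-210-3p and miR-210-5p, every called list member and up to 4 uncalled members a list with the largest difference, the 5 highest and 3 lowest correlations over 12 arrays, the 5 highest over 13, and the neighbours in the M295 ranking. Marker lists were haematopoietic, T-lymphoid, erythroid, myeloid, endothelial and stromal, and epithelial. Header coordinates name another mouse build than the sequences and were not used.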

Additional observations from a re-analysis of the deposited data

Results flagged for a closer look

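In 40 checks of 6-array sets of the listed miRNAs, 2 held an array whose gap to its nearest neighbour took up an unusually large part of the set's range (Dixon's ratio at the 95% level, which chance passes in about 1 set in 20). ES 3 was that array both times, among the 6 T-ALL arrays. For miR-322-5p the ratio was 0.806, with ES 3 at -3.21 and the others at -7.59 to -6.74, where 4 stood at the floor. For miR-17-5p it was 0.626, with ES 3 the lowest at -4.85 and the others at -3.38 to -2.50.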

How the results depend on the processing

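Of 375 recomputed summary values, 316 stayed within the replicate spread or 1.5 times the count, and 59 moved. The cause was not tested for any of them. The M295 difference for miR-210-3p was 3.59 with normexp, 4.58 in the authors' deposited table and 5.69 to 5.96 with 1 primary array left out. The count of calls in T-ALL against thymocytes was 131 of 228 other tested miRNAs. It was 60 of 108 with the stricter filter, which keeps only miRNAs above background on all primary arrays. In LS against ES the count was 6, and 0 with median scaling or no filter. In DN against DP it was 67 of 228, and 43 with normexp and 33 of 108 with the stricter filter. Counts under different filters are over different numbers of miRNAs, with all 1122 mouse miRNAs on the array tested under no filter. Of the lists, no filter left 3 hypoxia-raised miRNAs called in T-ALL and 0 HIF-acting ones in T-ALL or in DN against DP. In T-ALL, normexp left 1 HIF-acting miRNA and the stricter filter 0, since it dropped miR-155-5p and miR-322-5p before testing. Scaling over all mouse miRNAs gave 1 hypoxia-raised call in LS against ES.

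Leaving out 1 array gave 110 to 153 calls in T-ALL against thymocytes, 1 to 55 in LS against ES (55 without ES 3) and 44 to 101 in DN against DP. Hypoxia-raised calls ranged over 5 to 9, 0 to 4 and 4 to 7, and HIF-acting calls over 2 to 3, 0 to 1 and 0 to 5, in the same order. The miR-210-3p differences ranged over -0.87 to -0.10 (T-ALL minus thymocytes), -1.06 to 0.47 (LS minus ES), -0.59 to -0.47 (DN minus DP), -1.36 to 0.17 (ES minus DP) and -1.02 to -0.68 (LS minus DP). Fits within a slide and without ES 1 and ES 3 together were chosen after seeing the data. Within the first slide, with 1 DN and 1 DP array, calls were 30 in T-ALL against thymocytes (0 hypoxia-raised, 1 HIF-acting), 0 in LS against ES and 20 in DN against DP (0 and 0), with miR-210-3p at 0.67 (LS minus ES) and -1.43 (ES minus DP). Within the second slide, where ES and LS are 1 array each and the spread comes from DN and DP alone, they were 197 (6 HIF-acting), 136 (6 and 6) and 123 (9 and 6), with miR-210-3p at -2.62 and 1.36. Without ES 1 and ES 3 there were 10 calls in LS against ES and 108 in DN against DP (8 and 4). Slide as a block gave 3 calls in LS against ES. Of 14 calls on list members each was lost under at least 1 alternative and 0 reversed; miR-26b-5p was lost most often, under 14 of 26 in T-ALL and 10 of 26 in DN against DP.

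With the replicate number as a block, LS against ES had 3 calls, and no other call count moved by over 1.5 times. Over all groups, the correlation of the deviations of arrays with the same number ranged from -0.34 to 0.50, with a median of 0.01. Of 12 arrays, 5 correlated best with their own number. Between DN and DP the same-number values were -0.01 (number 1), 0.46 (number 2) and 0.23 (number 3). The crossed pairs DN 2 with DP 3 and DN 3 with DP 2 gave -0.32 and -0.33. A pairing of DN with DP arrays is therefore not settled by the median over all groups. Scaling over all mouse miRNAs moved the median difference from 0.29 to -0.37 in LS against ES and from 0.16 to 0.46 in DN against DP, where calls went from 5 higher and 1 lower to 0 and 9, and from 24 higher and 43 lower to 29 and 29. Scaling by the median moved the median difference from -0.12 to -0.29 in T-ALL against thymocytes. In DN, LS and most ES arrays the signal of miR-210-3p was not well above background, which limits any order among them, and 3 arrays a group limit the precision.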
